A study of Fukomys damarensis and Heterocephalus glaber and Cavia porcellus with 28 samples.

Results

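Superoxide dismutases, catalase and peroxidases are the enzymes that remove superoxide and hydrogen peroxide from cells, and their genes were followed here in heart and liver of 4 rodent species. The genes were listed by symbol, 10 in all, and rows of the deposited tables were matched to them through mouse Ensembl gene identifiers. Rows were found for 8 of the 10 listed genes among 13928 rows in each table: Sod1 (ENSMUSG00000022982), Sod2 (ENSMUSG00000006818), Cat (ENSMUSG00000027187), Gpx3 (ENSMUSG00000018339), Gpx4 (ENSMUSG00000075706), Prdx3 (ENSMUSG00000024997), Prdx5 (ENSMUSG00000024953) and Prdx6 (ENSMUSG00000026701). The other listed genes, Gpx1 and Sod3, were not analysed here. All 8 genes passed the filter on low values in both tissues.

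RNA sequencing of total RNA depleted of ribosomal RNA was done on naked mole-rat, Damaraland mole-rat, guinea pig and mouse. Heart came from 3 naked mole-rats aged 13 to 17 months, 5 Damaraland mole-rats aged 36 to 48 months, 3 guinea pigs aged 2.3 months and 3 mice aged 2 months. Liver came from 4, 5, 3 and 2 animals of the same species, with naked mole-rats aged 13 to 17 months, Damaraland mole-rats aged 36 to 48 months, and guinea pigs and mice of the ages given for heart. All animals were labelled male except the female that gave Damaraland mole-rat liver replicate 4, and 10 of the 18 animals gave both tissues. The labels give no treatment and no strain, and 1 Damaraland animal carries different ages on its heart and liver labels. The mole-rats are older than the outgroups in every comparison, and the Damaraland mole-rats are older than the naked mole-rats. Species and age therefore cannot be told apart, also between the mole-rats.

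Superoxide dismutases turn superoxide into hydrogen peroxide, and catalase, glutathione peroxidases and peroxiredoxins then break hydrogen peroxide and organic peroxides down. Glutathione peroxidases such as Gpx3 and Gpx4 carry selenocysteine and draw on glutathione, while most peroxiredoxins use a reactive cysteine that thioredoxin reduces. The enzymes are divided among compartments, with Sod2 and Prdx3 in mitochondria, catalase in peroxisomes, Gpx3 secreted into plasma and Sod1 mainly in the cytosol. Liver is rich in catalase, heart muscle is rich in mitochondria, and low glutathione peroxidase activity has been described in naked mole-rat liver.

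Unless scaled reads are stated, values are given on the log2-like scale of the deposited tables. Scaled reads are the reads recovered from those values divided by a factor for the library's depth. On the log2-like scale a 2-fold change moved the value by 0.946 from 1000 scaled reads in heart and by 0.679 from 100, and in liver by 0.973 and 0.801. Nothing in the values corrects for differences in transcript length or annotation between species, and how reads of near-identical copies such as processed pseudogenes were assigned is not given in the sources used here. For every species difference below, the level of the transcript and such differences between annotations therefore cannot be told apart. Genes were tested with limma over all genes of a tissue, and a call required both an adjusted p under 0.05 and a difference of at least 1.

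Libraries held 4089633 to 26985779 recovered reads in heart and 11220505 to 21467939 in liver, and the 8 genes had at least 10 reads in every library. Naked mole-rat heart replicate 3 was the shallowest library, and calls that changed without it are given beside the gene. The 5 cardiomyocyte markers (Actc1, Tnnt2, Myh6, Ryr2, Pln) were above 0 in every heart library and summed to 428070 to 1577800 scaled reads, against 545 to 2977 in liver. These heart sums were 428070 to 861880 in naked and 1142700 to 1577800 in Damaraland mole-rat. In guinea pig they were 702800 to 783440 and in mouse 942210 to 1016400. Their part in the heart differences below was not tested. Of 5 hepatocyte markers, the 3 with rows in the tables summed to 800430 to 2796200 scaled reads in liver. In heart these summed to 10151 to 28751 in naked mole-rat and to 270 to 4884 in the other species.

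Counts of called genes among the 8 were close to the share over all genes in several comparisons. In heart, 4 of 8 were called between naked and Damaraland mole-rat (1 higher and 3 lower in naked), where 29.4% of all 10667 genes tested were called, 14.2% higher and 15.2% lower. Against guinea pig 3 were called, each lower in naked mole-rat (33% of all genes were called, 16% higher and 17% lower). Against mouse 4 were called, each lower in naked mole-rat (38.2%; 18% and 20.2%). Damaraland mole-rat differed from guinea pig in 4 genes, 1 higher and 3 lower (29.7%; 14.7% and 15.1%), and from mouse in 4 genes, each lower in Damaraland (34.9%; 16.9% and 18%). Guinea pig and mouse differed in 4 genes, 1 higher and 3 lower in guinea pig (32.1%; 15.2% and 16.9%). These comparisons share libraries with each other, so their counts are not independent.

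In liver the calls were spread more unevenly over the species pairs. Between naked and Damaraland mole-rat 5 of 8 were called (3 higher and 2 lower in naked), where 34.2% of all 10887 genes tested were called, 16.6% higher and 17.6% lower. Naked mole-rat differed from guinea pig in 5 genes, 2 higher and 3 lower (37.8%; 19.4% and 18.5%), and from mouse in 5, 3 higher and 2 lower (41.2%; 21.1% and 20.1%). Damaraland mole-rat differed from guinea pig in 3 genes, each lower in Damaraland (36.2%; 19.1% and 17.1%), and from mouse in 2, each lower (39.2%; 20.9% and 18.4%). Guinea pig and mouse differed in 1 gene, Cat, higher in guinea pig (37.2%; 18.8% and 18.4%). The median difference of the 8 genes was -0.95 for naked mole-rat minus mouse and -1.15 for Damaraland mole-rat minus mouse in heart, where the median over all genes was -0.0024 and 0.01. In liver these medians were 0.01 and -0.51 for the 8 genes, and 0.05 over all genes in each.

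Groups whose libraries do not overlap are common between species. In heart this held for 4 of the 8 genes between the mole-rats (51.8% of all genes), for 6 and 7 between naked mole-rat and guinea pig or mouse (64.4% and 72.4%), for 5 and 6 between Damaraland mole-rat and the same outgroups (56.7% and 65.9%), and for 6 between the outgroups (74.2%). In liver the counts in the same order were 5 (57%), 6 and 8 (64.5% and 71.9%), 5 and 5 (60.3% and 68.4%), and 4 (70.7%).

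**Figure D1:**
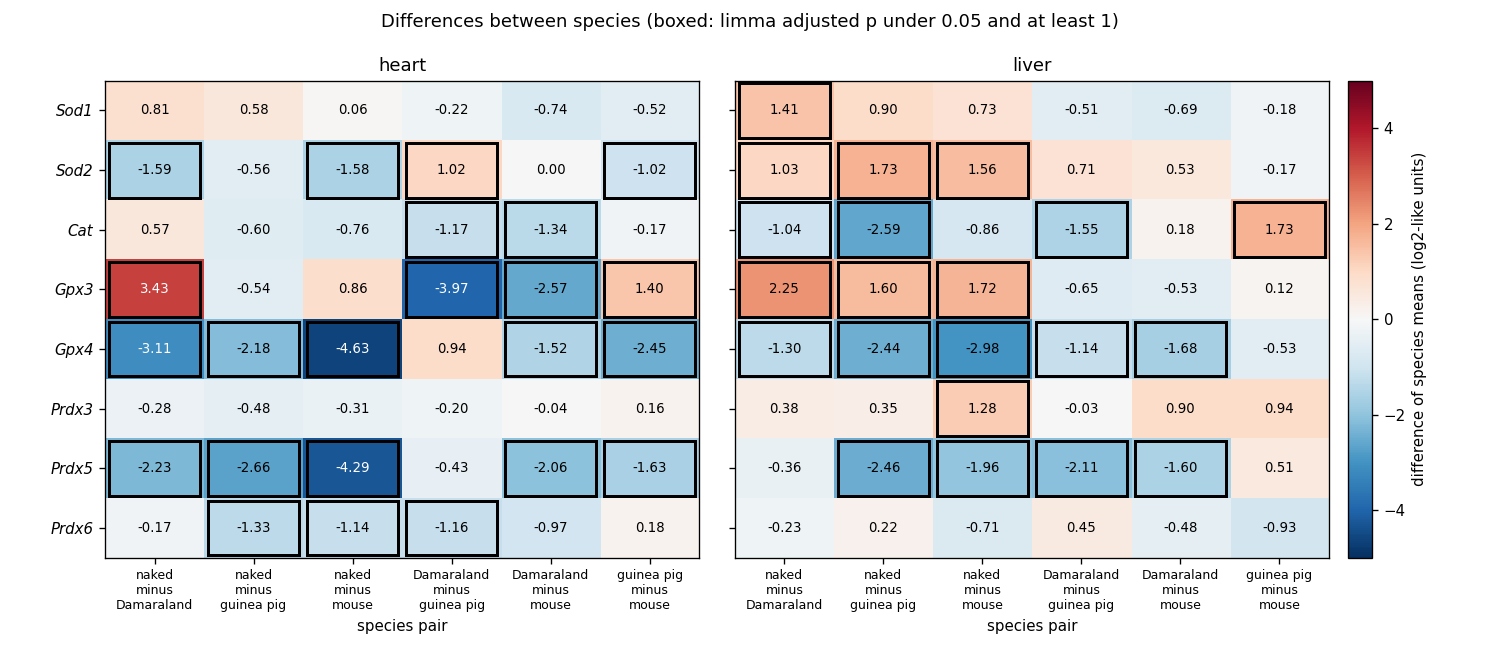
Differences of species means in log2-like units (colour and printed value) for the 8 genes (vertical axis) in each of 6 species pairs (horizontal axis), in heart and liver. Boxes mark calls by limma, and Gpx4 and Prdx5 hold the largest negative values, -4.63 and -4.29 for naked mole-rat minus mouse in heart.

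Gpx4 and Prdx5 were lower in both mole-rats than in both outgroups in liver by calls in all 4 contrasts, where 6.29% of all genes were called so, 3.42% higher and 2.87% lower. Without guinea pig liver replicate 3, Prdx5 alone met this rule. In heart the same rule called 0 of the 8 genes (4.68% of all genes, 2.06% higher and 2.62% lower), and an unadjusted p under 0.05 in limma with the same minimum difference also gave 0. With voom on recovered reads Prdx6 alone met the rule in heart. Without the minimum difference, Cat, Prdx5 and Prdx6 were lower in heart in all 4 contrasts at an unadjusted p under 0.05. In liver that rule gave Gpx4 and Prdx5, lower in both mole-rats, and Sod2, higher in both (differences of 0.53 to 1.73). The share of all genes meeting this looser rule is not given here.

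Gpx4, the glutathione peroxidase that reduces lipid hydroperoxides within membranes and protects cells from ferroptosis, had the widest range of species means in each tissue. In heart the 3 naked mole-rats had values of 8.32, 7.79 and 9.13. The 5 Damaraland mole-rats had 11.49, 11.72, 11.94, 11.21 and 11.27. Guinea pig hearts had 10.49, 10.43 and 10.85, and mouse hearts 13.05, 13.00 and 13.07. The 4 species did not overlap, with naked mole-rat lowest and mouse highest. In scaled reads the means were 290 in naked and 2921 in Damaraland mole-rats, against 1474 in guinea pigs and 8351 in mice.

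Naked mole-rat hearts were 28.8-fold lower than mouse hearts in mean scaled reads of Gpx4, a difference of -4.63 on the log2-like scale (SE 0.27; limma adjusted p 3.31e-10). Without naked mole-rat replicate 3 the ratio was 42.9 and the difference -4.99. They were also called lower than Damaraland mole-rat by -3.11 (SE 0.24; limma adjusted p 1.24e-08) and lower than guinea pig by -2.18 (SE 0.27; limma adjusted p 3.23e-06). Such calls, lower in naked mole-rat than in each other species, were made for 4.14% of all heart genes, and Gpx4 and Prdx5 were the 2 of the 8 genes among them. The same 2 genes were called higher in mouse than in each other species (6.6% of all genes). Damaraland mole-rat was -1.52 from mouse (limma adjusted p 3.65e-05). Damaraland was 0.94 above guinea pig (limma adjusted p 0.0031), just under the minimum difference. This became a call without Damaraland replicate 4 (1.01), Damaraland replicate 5 (just above 1) or guinea pig replicate 3 (1.07). It was also a call with the replicate number as a block (1.13), a fit in which Damaraland replicates 4 and 5 carry no weight.

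In liver Gpx4 kept naked mole-rat lowest, with values of 8.94, 9.10, 8.47 and 8.53. Damaraland livers had 10.01, 10.29, 10.02, 10.28 and 9.71. Guinea pig livers had 11.18, 10.87 and 11.56, and mouse livers 11.76 and 11.71. The species again did not overlap, and both mole-rats lay below both outgroups. Naked mole-rat was 8.38-fold lower than mouse in scaled reads (difference -2.98, SE 0.23; limma adjusted p 5.17e-09) and -2.44 from guinea pig (limma adjusted p 1.06e-08). It was also -1.30 from Damaraland mole-rat (limma adjusted p 4.53e-06), and calls lower than each other species were made for 4.45% of all liver genes. Damaraland mole-rat was -1.68 from mouse (limma adjusted p 3.78e-06) and -1.14 from guinea pig (limma adjusted p 5e-05), and without guinea pig replicate 3 the latter was -0.97 and no longer a call. Guinea pig and mouse, neighbours in the order, differed by -0.53 (limma adjusted p 0.0647; 95% interval -1.04 to -0.03).

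**Figure D2:**
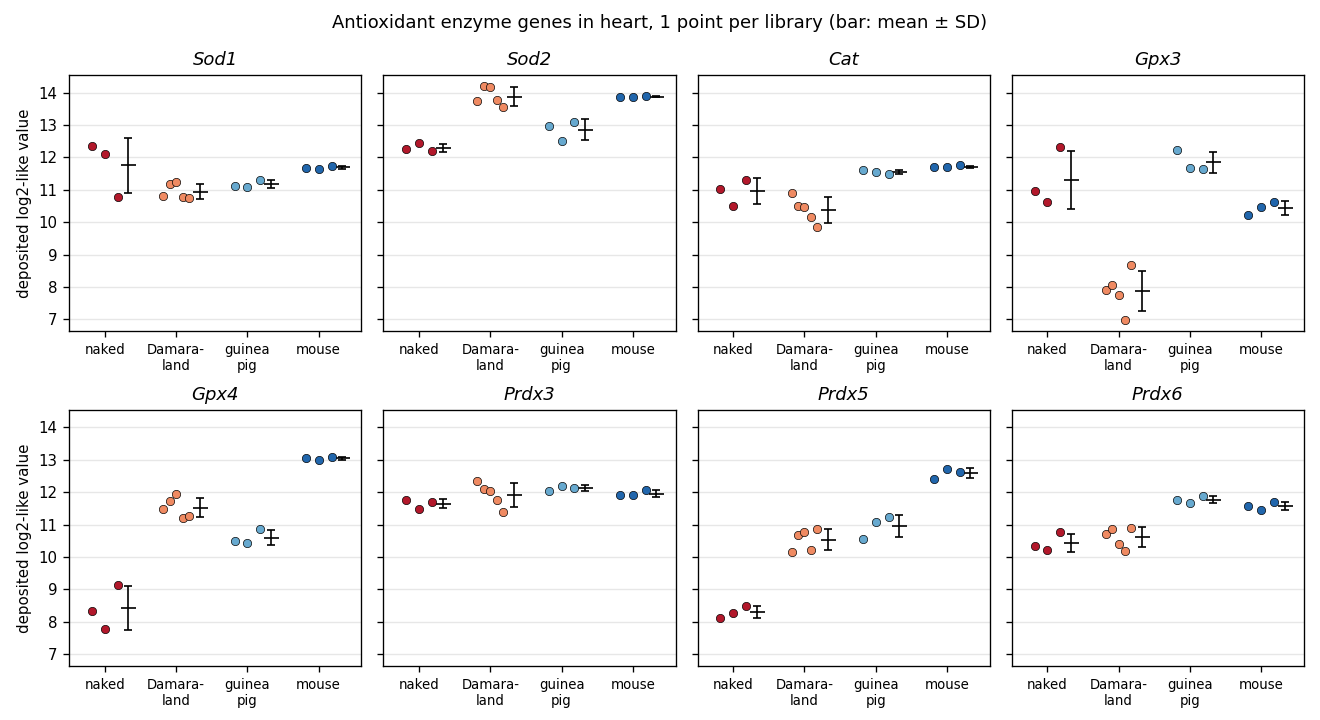
Deposited log2-like value (vertical axis) of each of the 8 genes in each heart library, by species (horizontal axis), with the mean and SD of each species beside the points. Gpx4 and Prdx5 in naked mole-rat (highest values 9.13 and 8.49) and Gpx3 in Damaraland mole-rat (highest value 8.68) lie below every library of the other species.

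Gpx3, the secreted glutathione peroxidase of plasma, was higher in naked than in Damaraland mole-rat in both tissues. Naked mole-rat hearts had values of 10.95, 10.63 and 12.32. Damaraland hearts had 7.90, 8.06, 7.75, 6.99 and 8.68, below every heart of the other species. Guinea pig hearts had 12.21, 11.68 and 11.64, and mouse hearts 10.21, 10.48 and 10.63. Mean scaled reads were 2817 in naked and 177 in Damaraland mole-rats, against 3656 in guinea pigs and 1319 in mice. The naked mole-rat mean was 1704 without replicate 3, the shallowest library and the highest in Gpx3.

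Damaraland hearts were called lower in Gpx3 than each other species, which held for 2.9% of all heart genes. The difference was 3.43 for naked minus Damaraland mole-rat (SE 0.35; limma adjusted p 3.24e-07), a 15.9-fold ratio of scaled reads. Without naked mole-rat replicate 3 the difference was 2.92 (limma adjusted p 1.08e-06) and the ratio 9.62. Damaraland was -3.97 from guinea pig (limma adjusted p 5.17e-08) and -2.57 from mouse (limma adjusted p 6.86e-06). Guinea pig was 1.40 above mouse (limma adjusted p 0.00553). Naked mole-rat was not called against guinea pig (-0.54; limma adjusted p 0.245) or mouse (0.86; limma adjusted p 0.0635). Without naked mole-rat replicate 3 the difference from guinea pig was -1.05 and a call, and that from mouse was 0.35 and no call (limma adjusted p 0.378). Without naked mole-rat replicate 2 the difference from mouse was 1.20 and a call, and under quantile normalisation it was 1.06 and a call.

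Levels of fibroblast markers also differed among these hearts. The 4 of 5 listed fibroblast markers with rows summed to 42415 to 114860 scaled reads in guinea pig, 10541 to 23218 in naked mole-rat, 9959 to 42449 in Damaraland mole-rat and 7419 to 9860 in mouse. Within Damaraland hearts replicates 1 to 5 had fibroblast sums of 14920, 11929, 15559, 9959 and 42449. Replicate 4 was lowest and replicate 5 highest both in this sum and in Gpx3, while the other 3 had the opposite order in the sum and in Gpx3. Mouse hearts had lower fibroblast sums than Damaraland hearts but higher Gpx3. The part of cell composition in the Gpx3 differences was not tested, and in bulk tissue fewer cells of a type and less RNA per cell cannot be told apart.

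In liver Gpx3 was rare, with mean scaled reads of 180 in naked and 13.8 in Damaraland mole-rats, against 38.7 in guinea pigs and 32.0 in mice. The 4 naked mole-rat livers had values of 7.72, 8.31, 7.22 and 7.57. Damaraland livers ranged from 5.33 to 5.59, guinea pig livers from 5.75 to 6.68, and the mouse livers had 6.28 and 5.70. Every naked mole-rat liver was above every liver of the other species. Gpx3 was called higher in naked mole-rat than in Damaraland mole-rat by 2.25 (SE 0.22; limma adjusted p 1.15e-07), guinea pig by 1.60 (limma adjusted p 3.1e-05) and mouse by 1.72 (limma adjusted p 5.83e-05).

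Calls higher in naked mole-rat than in each other species were made for 5.83% of all liver genes, and the other such gene of the 8 was Sod2. At these read numbers the log2-like scale compresses differences, and the ratio of naked to Damaraland scaled reads was 13.1, a difference of 3.54 with voom on recovered reads. The mean of 38.7 in guinea pig was 24.5 without replicate 3, and the mean of 32.0 in mouse was 20.3 without replicate 1. Damaraland mole-rat was -0.65 from guinea pig (limma adjusted p 0.0269), which became a call with voom on recovered reads (-1.31). Of 4 bile duct markers, the 3 with rows summed to 2136 to 2973 scaled reads in naked mole-rat, 834 to 2047 in guinea pig, 66.2 to 396 in Damaraland mole-rat and 26.8 to 47.2 in mouse. The naked mole-rat sum was mostly Epcam (mean 2290), while Krt19 was highest in guinea pig (1224, against 229 in naked mole-rat) and Krt7 was lowest in naked mole-rat (2.27, with 7.81 in Damaraland mole-rat and 51.1 in guinea pig). Their part in the Gpx3 difference was not tested.

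Sod2, the manganese superoxide dismutase of the mitochondrial matrix, was lowest in naked mole-rat in heart and highest in naked mole-rat in liver. The means of the other 3 species had the same order in both tissues, but neighbours in it were not all resolved. Damaraland minus mouse was 0.0022 in heart (limma adjusted p 0.993) and guinea pig minus mouse was -0.17 in liver (limma adjusted p 0.574). In heart naked mole-rats had 12.24, 12.43 and 12.20. Damaraland hearts had 13.73, 14.19, 14.16, 13.77 and 13.54, and guinea pig hearts 12.97, 12.49 and 13.10. Mouse hearts had 13.87, 13.85 and 13.90. Naked mole-rat hearts lay below every other library, and Damaraland and mouse hearts overlapped. Mean scaled reads were 4941 in naked and 15204 in Damaraland mole-rats, against 7432 in guinea pigs and 14944 in mice.

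Sod2 in heart was called lower in naked mole-rat than in Damaraland mole-rat, by -1.59 (SE 0.19; limma adjusted p 1.53e-06), and than in mouse, by -1.58 (SE 0.21; limma adjusted p 4.53e-06). The difference from guinea pig was -0.56 (limma adjusted p 0.0271), under the minimum difference. Damaraland minus mouse was 0.00, with a 95% interval of -0.39 to 0.39. Guinea pig lay between, 1.02 below Damaraland (limma adjusted p 0.000148) and -1.02 from mouse (limma adjusted p 0.000457), and both calls sat at the minimum difference. The first was 0.95 without Damaraland replicate 2 or replicate 3 and 0.89 under quantile normalisation, and both were lost without guinea pig replicate 2, at 0.84 and -0.84. The second was also lost when libraries were centred (-0.997) and under quantile normalisation (-0.60).

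In liver Sod2 values of naked mole-rats were 13.11, 13.51, 13.93 and 13.48. Damaraland livers had 12.65, 12.57, 12.51, 12.63 and 12.04. Guinea pig livers had 11.74, 11.59 and 11.99, and mouse livers 11.75 and 12.15. Naked mole-rat lay above every other library, while Damaraland and mouse overlapped. It was called 1.73 above guinea pig (SE 0.21; limma adjusted p 1.19e-06), a 3.40-fold ratio of scaled reads. It was 1.56 above mouse (SE 0.23; limma adjusted p 1.82e-05) and 1.03 above Damaraland mole-rat (SE 0.18; limma adjusted p 8.94e-05). The last of these fell under the minimum difference without naked mole-rat replicate 3 (0.89), without Damaraland replicate 5 (0.92), with the replicate number as a block (0.92) and under quantile normalisation (0.83). The block also gives Damaraland replicate 5 no weight. Damaraland minus guinea pig was 0.71 (limma adjusted p 0.00481) and Damaraland minus mouse 0.53 (limma adjusted p 0.0495), both short of a call.

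Sod1, the copper-zinc superoxide dismutase of the cytosol, was highest in heart in 2 of the 3 naked mole-rats, while the last lay among the Damaraland values. Naked mole-rat hearts had 12.36, 12.11 and 10.79, the last in the shallow replicate 3. Damaraland hearts had 10.80, 11.18, 11.23, 10.77 and 10.75. Guinea pig hearts ranged from 11.09 to 11.31 and mouse hearts from 11.64 to 11.75. Sod1 was called in none of the 6 heart contrasts, and the largest was 0.81 for naked minus Damaraland mole-rat (SE 0.26; limma adjusted p 0.0132; 95% interval 0.25 to 1.36). Without naked mole-rat heart replicate 3 this was 1.29 (limma adjusted p 8.53e-06) and naked minus guinea pig was 1.07 (limma adjusted p 0.000128), both calls. Hepatocyte marker sums in the 3 naked mole-rat hearts were 28751, 10151 and 27611 scaled reads, and their part in the Sod1 level was not tested.

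In liver Sod1 was highest in naked mole-rat, with 14.48, 14.73, 14.52 and 14.81, above every library of the other species. Damaraland livers had 13.35, 13.12, 13.16, 13.59 and 12.88. Guinea pig livers had 13.80, 13.44 and 13.97, and mouse livers 13.69 and 14.13. The naked mole-rat was 2.65-fold above Damaraland in scaled reads, a called difference of 1.41 (SE 0.18; limma adjusted p 2.24e-06). It was 0.90 above guinea pig (limma adjusted p 0.000919) and 0.73 above mouse (limma adjusted p 0.0114), under the minimum difference, and the first was 1.02 and a call without guinea pig liver replicate 3. Guinea pig and mouse, neighbours in the order, overlapped (-0.18; 95% interval -0.69 to 0.34).

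Cat, the catalase gene, was highest in guinea pig liver. Guinea pig livers had 17.03, 16.48 and 17.15, a mean of 123440 scaled reads. Naked mole-rat livers had 14.35, 14.37, 14.30 and 14.18, and Damaraland livers 15.10, 15.44, 15.31, 15.72 and 15.12. Mouse livers had 15.36 and 14.95. Guinea pig libraries lay above all others and naked mole-rat libraries below all others, with Damaraland and mouse overlapping between them.

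Guinea pig was called above naked mole-rat by 6.12-fold in scaled reads (naked minus guinea pig -2.59, SE 0.23; limma adjusted p 2.39e-08). It was also above Damaraland mole-rat (-1.55; limma adjusted p 7.02e-06) and mouse (1.73; limma adjusted p 3.33e-05), and calls higher in guinea pig than in each other species were made for 5.1% of all liver genes. Naked mole-rat was -1.04 from Damaraland (SE 0.20; limma adjusted p 0.000185), a call lost without naked mole-rat replicate 4 (-0.998) or Damaraland replicate 4 (-0.94). Naked minus mouse was -0.86 (limma adjusted p 0.00735), and became a call without mouse replicate 2 (-1.06) and under quantile normalisation (-1.13). Damaraland minus mouse was 0.18, with a 95% interval of -0.34 to 0.70.

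In heart Cat was lower in the mole-rats. Naked mole-rat hearts had 11.02, 10.51 and 11.30 and Damaraland hearts 10.91, 10.50, 10.46, 10.15 and 9.86, while guinea pig hearts ranged from 11.48 to 11.60 and mouse hearts from 11.69 to 11.75. Every mole-rat heart was below every outgroup heart. Damaraland was called lower than mouse by -1.34 (SE 0.21; limma adjusted p 3.28e-05) and lower than guinea pig by -1.17 (SE 0.21; limma adjusted p 0.000146). The latter was -0.92 and no call with the replicate number as a block, a fit in which Damaraland replicates 4 and 5 carry no weight. Naked mole-rat was -0.76 from mouse (limma adjusted p 0.00947) and -0.60 from guinea pig (limma adjusted p 0.038), under the minimum difference. Catalase is abundant in red cells, and 1 of 8 erythroid markers, Alas2, had a row. Alas2 ranged from 31.8 to 161 scaled reads in mole-rat hearts and from 298 to 1342 in mouse hearts. Guinea pig heart replicates 1 to 3 had 1035, 46 and 49.7 scaled reads of Alas2, and Cat values of 11.60, 11.55 and 11.48. Replicates 2 and 3 thus lay within the mole-rat range of Alas2 but above every mole-rat heart in Cat. The part of red cells, as marked by Alas2, in the Cat difference was not tested.

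**Figure D3:**
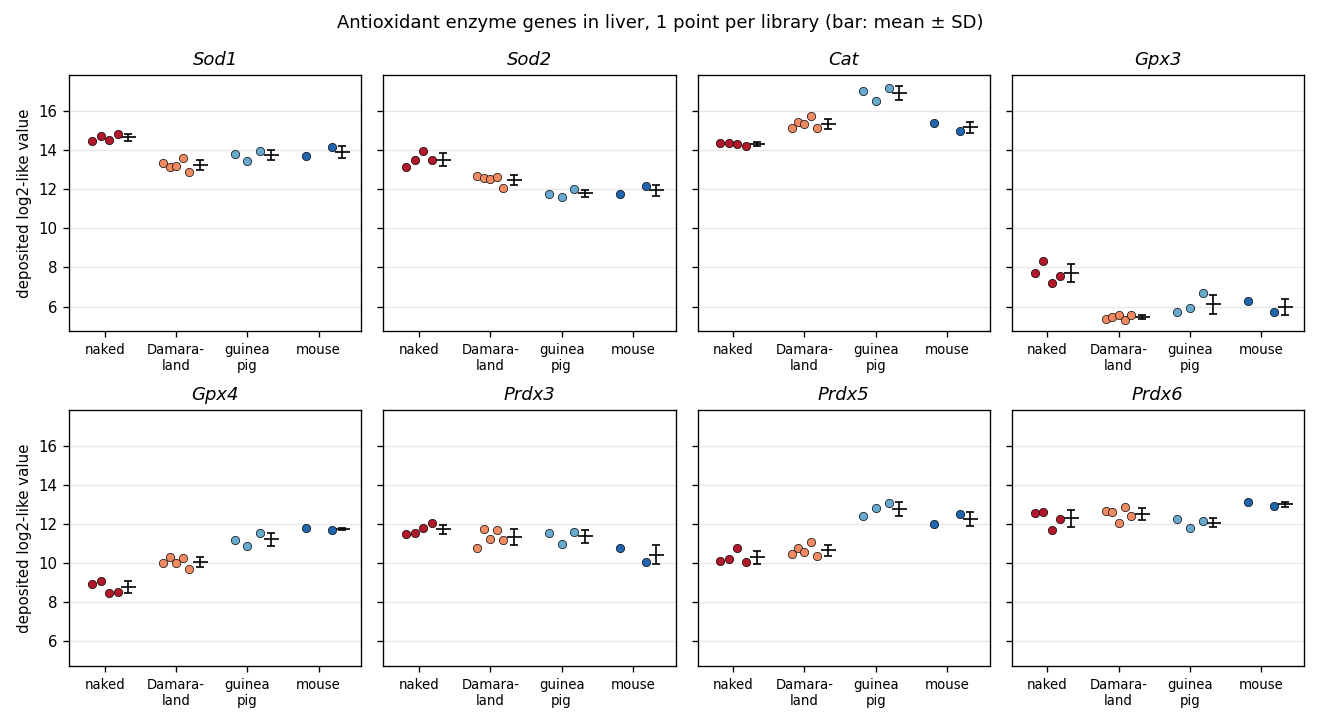
Deposited log2-like value (vertical axis) of each of the 8 genes in each liver library, by species (horizontal axis), with the mean and SD of each species beside the points. Cat in guinea pig (16.48 to 17.15) lies above all other libraries, and Gpx4 in naked mole-rat (8.47 to 9.10) below them.

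Prdx5, an atypical peroxiredoxin found in mitochondria, peroxisomes and cytosol, was lowest in naked mole-rat heart. The 3 naked mole-rats had 8.13, 8.27 and 8.49. Damaraland hearts had 10.14, 10.67, 10.76, 10.23 and 10.85, and guinea pig hearts 10.57, 11.08 and 11.22. Mouse hearts had 12.41, 12.71 and 12.64. Naked mole-rat and mouse hearts stood apart at the ends, and Damaraland and guinea pig hearts overlapped between them.

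The ratio of mouse to naked mole-rat scaled reads of Prdx5 in heart was 25.5, with means of 6091 and 239 and a difference of -4.29 (SE 0.22; limma adjusted p 5.4e-11). Naked mole-rat was also called lower than guinea pig by -2.66 (SE 0.22; limma adjusted p 2.6e-08) and than Damaraland by -2.23 (SE 0.20; limma adjusted p 5.1e-08). Damaraland was -2.06 from mouse (limma adjusted p 1e-07) and -0.43 from guinea pig (limma adjusted p 0.0674; 95% interval -0.84 to -0.01). Guinea pig was -1.63 from mouse (limma adjusted p 7.42e-06).

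In liver both mole-rats were low in Prdx5. Naked mole-rat livers had 10.12, 10.22, 10.77 and 10.07 and Damaraland livers 10.47, 10.79, 10.57, 11.06 and 10.38, which overlapped. Guinea pig livers had 12.41, 12.80 and 13.07, and mouse livers 11.99 and 12.51. Every mole-rat liver was below every outgroup liver. The naked mole-rat was -2.46 from guinea pig (SE 0.22; limma adjusted p 3.22e-08) and -1.96 from mouse (SE 0.25; limma adjusted p 2.77e-06). Damaraland was -2.11 from guinea pig (SE 0.21; limma adjusted p 1.34e-07) and -1.60 from mouse (SE 0.24; limma adjusted p 1.86e-05). In scaled reads these are ratios of outgroup to mole-rat from 3.08 to 5.64. The mole-rats differed by -0.36 (limma adjusted p 0.11; 95% interval -0.77 to 0.05).

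Prdx6, a peroxiredoxin that also has phospholipase activity, was lower in mole-rat than in outgroup hearts. Naked mole-rat hearts had 10.33, 10.22 and 10.76, and Damaraland hearts ranged from 10.19 to 10.90. Guinea pig hearts ranged from 11.66 to 11.87 and mouse hearts from 11.46 to 11.71, all above every mole-rat heart. Naked mole-rat was called lower than guinea pig by -1.33 (SE 0.20; limma adjusted p 2.76e-05) and than mouse by -1.14 (SE 0.20; limma adjusted p 0.000106), the latter being -0.95 and no call under quantile normalisation. Damaraland was called lower than guinea pig by -1.16 (SE 0.18; limma adjusted p 3.35e-05). Damaraland minus mouse was -0.97 (SE 0.18; limma adjusted p 0.000163), short of the minimum difference. It became a call without Damaraland replicate 2 (-1.03), Damaraland replicate 5 (-1.04) or mouse replicate 2 (-1.03) and with voom (-1.01), and each of these put Prdx6 among the genes lower in both mole-rats.

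In liver Prdx6 was called in none of the 6 contrasts, and the largest was -0.93 for guinea pig minus mouse (SE 0.27; limma adjusted p 0.00784). Leaving out guinea pig replicate 1 (-1.02) or mouse replicate 2 (-1.03) made that a call. Naked mole-rat livers had 12.57, 12.61, 11.69 and 12.25, Damaraland livers 12.07 to 12.84, guinea pig livers 11.79 to 12.24, and mouse livers 13.10 and 12.89. The mouse livers were highest, and the other 3 species overlapped.

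Prdx3, the peroxiredoxin of the mitochondrial matrix, varied least between species in heart, with species means from 11.64 ± 0.14 (SD, n = 3) in naked mole-rat to 12.12 ± 0.08 (SD, n = 3) in guinea pig. None of its 6 heart contrasts was called, and the largest was -0.48 for naked minus guinea pig (limma adjusted p 0.0552; 95% interval -0.92 to -0.04). In liver naked mole-rats had 11.50, 11.54, 11.79 and 12.02, Damaraland mole-rats 10.78 to 11.75, guinea pigs 10.99 to 11.59, and mice 10.79 and 10.08. Mouse was lowest. Naked minus mouse was called at 1.28 (SE 0.28; limma adjusted p 0.000629), and was 0.93 and no call without mouse replicate 2. Damaraland minus mouse (0.90; limma adjusted p 0.00716) and guinea pig minus mouse (0.94; limma adjusted p 0.011) were under the minimum difference. Both became calls under quantile normalisation (1.01 and 1.14) and without mouse replicate 1 (1.26 and 1.29). The first was also a call without Damaraland replicate 1 (1.04) and the second without guinea pig replicate 2 (1.12).

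The genes whose values over the 14 libraries of a tissue were most like those of Gpx4, the gene with the widest range, were Grb14 (Pearson r 0.987), Adra1b (0.986) and Map1lc3a (0.980) in heart and Ap3s1 (0.985), Ptprg (0.975) and Lmbrd2 (0.969) in liver. The libraries fall into 4 species, so these correlations describe the order of species means. Means of Grb14 in heart were 7.55 in naked and 10.53 in Damaraland mole-rats, against 9.75 in guinea pigs and 11.58 in mice. Means of Ap3s1 in liver were 5.45, 6.89, 8.30 and 8.63 in the same order.

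The rest of the peroxide-handling system was followed in 9 lists with 105 genes, of which 88 were tested in heart and 92 in liver. In heart 9 of the 88 were called higher in naked than in Damaraland mole-rat and 23 lower (14.2% and 15.2% of all genes, the shares against which each list below is to be read), with a median difference of -0.28 where the median of all genes was -0.0018. In liver 18 of the 92 were higher and 13 lower (16.6% and 17.6% of all genes, likewise), with medians of -0.07 and -0.03. Of the 88 in heart, 1 was higher and 1 lower in both mole-rats by the rule of 4 contrasts (2.06% and 2.62% of all genes). Of the 92 in liver, 2 were lower in both (2.87% of all genes).

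Among the other peroxidases, 5 of 8 were tested in heart, with 1 higher and 2 lower in naked than in Damaraland mole-rat, and 7 in liver, with 2 higher and 1 lower. Prdx1, the abundant cytosolic peroxiredoxin, was -3.30 in heart (SE 0.24; limma adjusted p 6.75e-09), with mean scaled reads of 280 in naked and 3579 in Damaraland mole-rat. In liver Prdx1 was -3.94 (SE 0.20; limma adjusted p 2.13e-11), with mean scaled reads of 489 in naked and 8175 in Damaraland mole-rats, against 416 in guinea pigs and 9153 in mice. Prdx1 was thus low in naked mole-rat and guinea pig livers and high in the others. Prdx2, another cytosolic peroxiredoxin, was -1.74 in heart (limma adjusted p 3.76e-06). Epx, the peroxidase of eosinophils, was 2.54 in liver (limma adjusted p 4.25e-10), from 137 scaled reads in naked and 3.70 in Damaraland mole-rat.

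The thioredoxin and glutaredoxin list (12 tested in each tissue) had 2 higher and 3 lower in naked than in Damaraland mole-rat in heart, and 2 higher and 1 lower in liver. Glrx, the cytosolic glutaredoxin, was higher in naked mole-rat by 2.38 in heart (limma adjusted p 1.24e-08) and 3.72 in liver (limma adjusted p 1.14e-10). Glrx2, its mitochondrial relative, was higher by 1.82 in liver (limma adjusted p 1.14e-07). Txnrd2, the mitochondrial thioredoxin reductase that serves Prdx3, was -1.77 in heart (limma adjusted p 3.94e-06).

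For glutathione and NADPH supply (8 tested in each tissue), 2 were higher and 3 lower in naked than in Damaraland heart, and 2 higher and 4 lower in liver. Gclc and Gclm encode the catalytic and modifier subunits of glutamate-cysteine ligase, the first step of glutathione synthesis. Gclc was lower in both mole-rats in liver, from -1.32 for Damaraland minus guinea pig to -3.51 for naked minus mouse (limma adjusted p 2.3e-05 and 1.49e-09). Mean scaled reads of Gclc were 677 in naked and 1774 in Damaraland mole-rats, against 4518 in guinea pigs and 7962 in mice. Gclm was -2.75 for naked minus Damaraland liver (limma adjusted p 2.01e-08) and the malic enzyme gene Me1 was -2.60 (limma adjusted p 1.42e-08). In heart the glutathione synthetase gene Gss was -1.24 (limma adjusted p 9.23e-06) and the glutathione reductase gene Gsr 1.28 (limma adjusted p 1.41e-06).

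**Figure D4:**
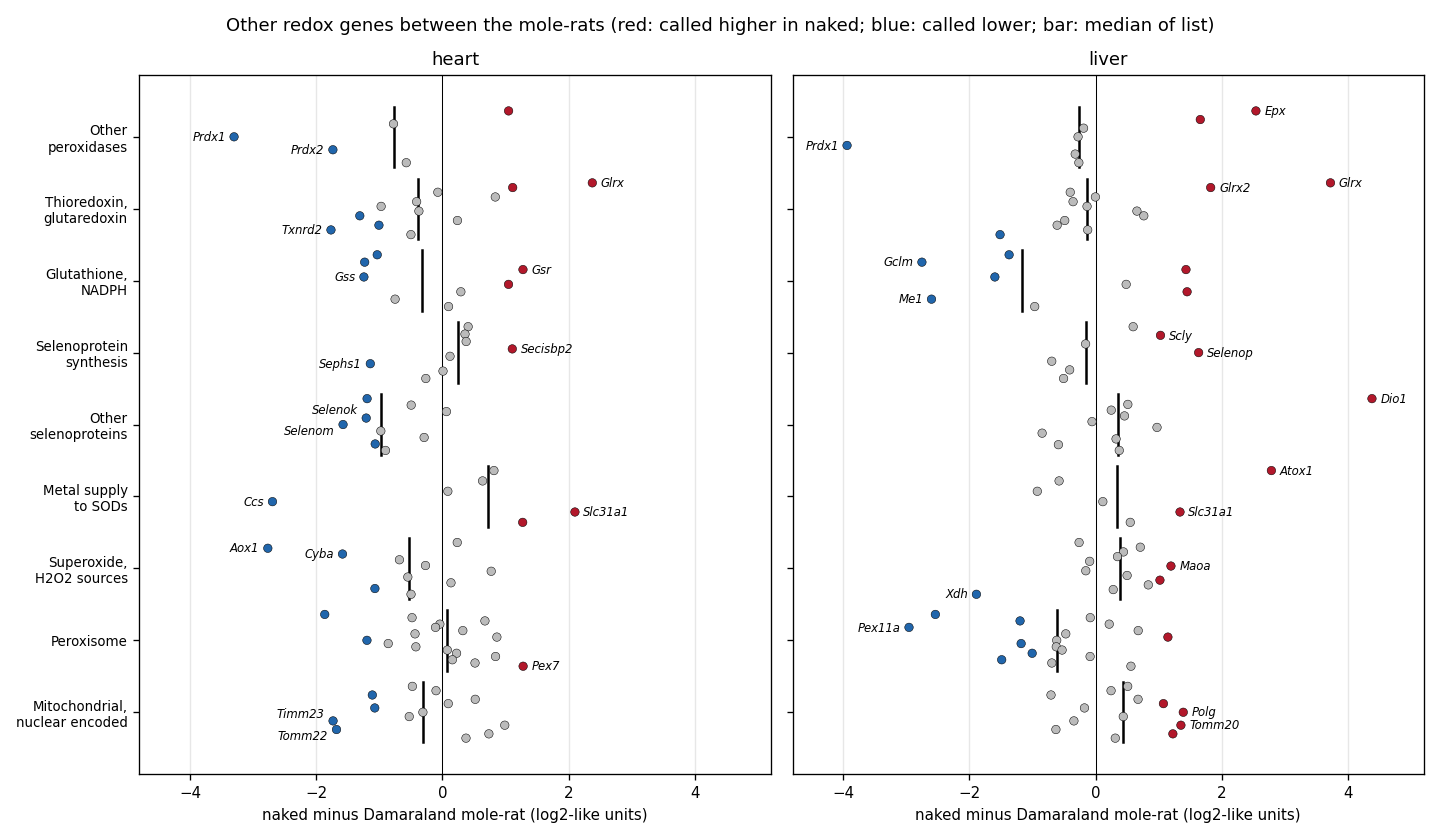
Difference of naked minus Damaraland mole-rat in log2-like units (horizontal axis) for each tested gene of 9 lists (vertical axis), in heart and liver. Red and blue points are genes called higher and lower in naked mole-rat, black bars are list medians, and Prdx1 lies at -3.30 in heart and -3.94 in liver.

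Selenium genes were followed because Gpx3 and Gpx4 contain selenocysteine. Of the other selenoproteins, 4 of 9 tested were lower in naked than in Damaraland heart, with a median of -0.98, among them Selenom (-1.57; limma adjusted p 1.5e-05) and Selenok (-1.21; limma adjusted p 0.000343), both of the endoplasmic reticulum. Against guinea pig heart, 1 was lower in naked mole-rat (17% of all genes, list median -0.29) and 3 were higher in Damaraland (14.7%, list median 0.54). Against mouse heart, 6, 5 and 6 were lower in naked mole-rat, Damaraland mole-rat and guinea pig (20.2%, 18% and 16.9%). In the same order 0, 2 and 1 were higher than in mouse heart (18%, 16.9% and 15.2%). In liver 1 of 10 was called between the mole-rats: Dio1, which activates thyroid hormone, was 4.38 higher in naked mole-rat (SE 0.34; limma adjusted p 4.96e-09), from 2843 and 109 scaled reads. Against mouse liver, 7 of 10 were lower in each of naked mole-rat, Damaraland mole-rat and guinea pig (20.1%, 18.4% and 18.4% of all genes), and these 3 comparisons share the same 2 mouse livers. For selenoprotein synthesis and selenium supply, 1 of 8 was higher and 1 lower in naked than in Damaraland heart. These were Secisbp2, which binds selenoprotein messages (1.11; limma adjusted p 2.59e-05), and Sephs1, a selenophosphate synthetase homologue (-1.14; limma adjusted p 3.05e-05). In liver 2 of 7 were higher in naked mole-rat: Selenop, which carries selenium in plasma, by 1.63 (limma adjusted p 0.000178) and the selenocysteine lyase gene Scly by 1.03 (limma adjusted p 8.82e-06).

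Of 6 genes tested for metal supply to superoxide dismutases, 2 were higher and 1 lower in naked than in Damaraland heart, and 2 were higher in liver. Ccs, the chaperone that loads copper into Sod1, was -2.69 in heart (SE 0.19; limma adjusted p 2.92e-09), with mean scaled reads of 162 in naked and 1491 in Damaraland mole-rats, against 262 in guinea pigs and 201 in mice. The copper importer gene Slc31a1 was 2.10 higher in naked than in Damaraland heart (limma adjusted p 2.62e-08) and 1.34 higher in liver (limma adjusted p 1.13e-06). The copper chaperone gene Atox1 was 2.79 higher in liver (limma adjusted p 1.21e-08).

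Among sources of superoxide and hydrogen peroxide (10 tested in heart, 12 in liver), 3 were lower in naked than in Damaraland heart, and 2 were higher and 1 lower in liver. In heart 2 genes of this list were shifted in both mole-rats. Xdh, which encodes xanthine dehydrogenase, was higher by 1.67 to 2.94 in the 4 contrasts (limma adjusted p at most 6.24e-06), and Maob, the monoamine oxidase B gene, was lower by -1.92 to -3.67 (limma adjusted p at most 1.82e-05). Naked minus Damaraland differences were -2.77 for the aldehyde oxidase gene Aox1 (limma adjusted p 4.28e-09) and -1.58 for Cyba, a subunit of the phagocyte NADPH oxidase (limma adjusted p 7.19e-05), in heart. The 6 of 7 macrophage and leukocyte markers with rows summed to 307 to 537 scaled reads in naked and 958 to 2315 in Damaraland hearts (no marker at 0 throughout), and their part in the Cyba difference was not tested. In liver they were -1.89 for Xdh (limma adjusted p 3.68e-09) and 1.19 for the monoamine oxidase A gene Maoa (limma adjusted p 1.69e-06).

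Genes of the compartments were followed beside Cat, Sod2 and Prdx3. Of 17 peroxisome genes, 1 was higher and 2 lower in naked than in Damaraland heart (14.2% and 15.2% of all genes), and 1 higher and 6 lower in liver (16.6% and 17.6%). The lower liver genes included Pex11a, which promotes peroxisome division (-2.96; limma adjusted p 6.45e-11). In heart Pex7, an import receptor, was higher (1.28; limma adjusted p 5.15e-06). Pex2, part of the import machinery, was lower in both mole-rats in liver, by -1.20 to -1.94 in the 4 contrasts (limma adjusted p at most 3.23e-05).

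Of 13 nuclear-encoded mitochondrial genes, 4 were lower in naked than in Damaraland heart (15.2% of all genes) and 4 were higher in naked than in Damaraland liver (16.6%). The medians of the list were -0.31 in heart and 0.44 in liver. In heart the import genes Timm23 and Tomm22 were -1.73 (limma adjusted p 1.36e-06) and -1.68 (limma adjusted p 1.47e-06). In liver the mitochondrial DNA polymerase gene Polg was 1.39 higher (limma adjusted p 4.64e-07) and the import receptor gene Tomm20 1.35 higher (limma adjusted p 1.11e-05). The part of mitochondrial content in the Sod2 differences was not tested.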

How the data were processed

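The labels describe 28 libraries of ribosomal-RNA-depleted total RNA, grouped by species and tissue. Per the submitters' processing notes, cutadapt, Salmon 013.1 and DESeq2 were used and the build GRCm38 is named; how genes were assigned across species is not given in the sources used here. The deposited tables, 1 per tissue and scaled separately, hold variance-stabilised log2-like values per the file names. Their 26 columns of other series were not used. Of 13928 gene identifiers, 13921 matched a symbol. The value of a gene without reads was 5.3645 (heart) and 4.2893 (liver). Inverting the transform gave whole reads (largest deviation 8.8e-08 in heart and 1.4e-07 in liver), and these gave depths, scaled reads and the voom alternative.

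limma 3.58.1 in R 4.3.3 was fitted per tissue with a coefficient per species, an empirical Bayes trend and Benjamini-Hochberg adjustment over all genes tested. Genes with a mean under the 0-read value + 1 were left out, which kept 10667 in heart and 10887 in liver. Intervals are 95% intervals from the fit. The fit was tested on simulated data with known changes, for naked mole-rat minus mouse. Of 4-fold changes 92% were recovered as calls in heart and 86% in liver, and of 2-fold changes 15% and 7%. The simulation gave every gene the same dispersion and all species the same base level, and rare genes were not changed. These rates therefore hold for that setting and are not the power of the fit on the real genes. A 2-fold change moves the log2-like value by less than the minimum difference of 1. A difference that was not called can therefore still be 2-fold.

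The members and lists were chosen with earlier results of these data known. Named genes were all members; from each list up to 3 genes shifted in both mole-rats with the largest difference from the outgroups, and up to 2 called genes with the largest difference between the mole-rats; and the 3 genes most correlated with the member of the widest range. A gene taken by this rule is not reported here. Alternatives were no size threshold, no filter, centring, quantile normalisation, no variance trend, voom, leaving out each library, and the replicate number as a block. Replicates are separate animals by their labels.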

Additional observations from a re-analysis of the deposited data

Results flagged for a closer look

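In groups of 4 or 5 libraries, 24 combinations of gene and group were examined for a library that stood apart from the rest of its group, which chance gives in about 1 of 20. There was 1: Sod2 in Damaraland mole-rat liver replicate 5 was 12.04, against 12.51 to 12.65 in the other 4 livers.

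There were 6 differences with every library of 1 species on one side in heart and on the other side in liver. The heart and liver tables were scaled separately and the difference between tissues was not tested. Sod2 did so for naked mole-rat against each other species: -1.59 in heart and 1.03 in liver against Damaraland mole-rat, -0.56 and 1.73 against guinea pig, and -1.58 and 1.56 against mouse. Cat for guinea pig minus mouse was -0.17 in heart and 1.73 in liver. Gpx4 for Damaraland mole-rat minus guinea pig was 0.94 in heart and -1.14 in liver. Prdx3 for naked mole-rat minus mouse was -0.31 in heart and 1.28 in liver. Such reversals were not counted over all genes, so how common they are is not known. Per species pair, libraries did not overlap for 51.8% to 74.2% of all genes in heart and 57% to 71.9% in liver.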

How the results depend on the processing

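Counts of called genes among the 8 moved with the size threshold, by construction. Without it, 5 rather than 3 were called for naked mole-rat minus guinea pig in heart, and 2 rather than 0 (Cat and Prdx6) were lower in both mole-rats. In liver it gave 8 for naked mole-rat minus mouse, 6 and 5 for Damaraland mole-rat minus guinea pig and minus mouse, and 3 for guinea pig minus mouse, the last being 2 under quantile normalisation. Voom gave 1 gene lower in both mole-rats in heart. Shares of all genes were given above only for the limma fit with the minimum difference. Counts under the other settings have no such share beside them. Leaving out 1 library gave these ranges in heart: 4 to 5 between the mole-rats, 3 to 5 and 4 to 5 for naked mole-rat minus guinea pig and minus mouse, 3 to 5 and 4 to 5 for Damaraland mole-rat minus the same, 3 to 4 for guinea pig minus mouse, and 0 to 1 lower in both mole-rats. In liver the ranges in that order were 4 to 5, 5 to 6, 5 to 5, 2 to 3, 2 to 3, 1 to 2 and 1 to 2. The upper value for guinea pig minus mouse came without guinea pig replicate 1 or 2 or mouse replicate 1 or 2. With mouse liver at 1 library, that library is assumed to vary like the other groups.

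Sign changes were in differences that were not called. In heart Prdx3 for Damaraland mole-rat minus mouse became 0.0295 after centring, 0.0132 under quantile normalisation and 0.2026 with the replicate block, and ran from -0.14 to 0.0997 with a library left out. Prdx3 for Damaraland mole-rat minus guinea pig became 0.0382 with the block, and Cat for guinea pig minus mouse 0.0415 under quantile normalisation. With a library left out, Sod1 for naked mole-rat minus mouse ran from -0.2392 to 0.5464 and Sod2 for Damaraland mole-rat minus mouse from -0.0753 to 0.0867. In liver quantile normalisation gave 0.0164 for Sod2 and -0.1686 for Gpx3 (guinea pig minus mouse), and -0.0306 for Prdx6 (naked mole-rat minus guinea pig). With a liver library left out, guinea pig minus mouse ran from -0.3948 to 0.0386 for Sod1, from -0.3738 to 0.0282 for Sod2 and from -0.1719 to 0.4086 for Gpx3. Cat for Damaraland mole-rat minus mouse ran from -0.0241 to 0.3867, and Prdx3 for Damaraland mole-rat minus guinea pig from -0.2198 to 0.1073. The cause of these changes was not tested. Of the differences of single genes, 630 under other settings and 1299 with a library left out kept their direction and their side of the threshold.

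In heart, replicate numbers 4 and 5 occur only in Damaraland mole-rat, and in liver number 5 does. With the block these libraries therefore carry no weight in the contrasts. With the replicate block the total between the mole-rats in liver was 4 rather than 5. In heart the total of 4 for Damaraland mole-rat minus guinea pig became 2 higher and 2 lower, as Cat was lost (-0.92) and Gpx4 gained (1.13). The other totals and their splits were as without the block. Correlations between same-numbered libraries of different species were taken on deviations from the species means. They ran from -0.26 to 0.30 in heart (18 pairs, 2 over 0.1) and from -0.23 to 0.15 in liver (16 pairs, 5 over 0.1). In heart 6 of 12 and in liver 2 of 13 libraries correlated best with their own number. Whether this is more than chance gives was not tested. Depth limits Gpx3 in liver most, where 10 reads were recovered in the lowest library.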
